A study of Homo sapiens with 12 samples.

Results

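The LAPTM family of lysosome-associated transmembrane proteins was followed in Calu-6 cells in which one of its members, *LAPTM4B*, had been silenced. The family was taken as every feature of the array whose only gene symbol is *LAPTM4A*, *LAPTM4B* or *LAPTM5*. This gave 3 features, 1 for each gene, among the 19460 features that carry exactly 1 symbol and the 33252 features of the array. Calu-6 is an established human lung cancer cell line. Cells were transfected with scrambled siRNA (siControl) or with siRNA against *LAPTM4B* (siLAPTM4B), each a SMARTpool, which is a mixture of siRNAs. The medium was changed a day later, either to one with 10% FBS or to one with 0% FBS (serum starved), and cells were harvested for RNA after a further 48 h, at 72 h from transfection. The 4 groups, siControl 0% FBS, siLAPTM4B 0% FBS, siControl 10% FBS and siLAPTM4B 10% FBS, had 3 replicates each, on 12 Affymetrix Human Gene 1.0 ST arrays. The paper does not say whether the replicates came from separate transfections. Both siRNA groups of a medium share the transfection reagent, and only 1 pool per target was used, so effects of the loss of *LAPTM4B* and other effects of its pool cannot be told apart.

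LAPTM proteins sit in the membranes of late endosomes and lysosomes. Their cytoplasmic tails carry PY motifs, short proline and tyrosine stretches that bind the WW domains of ubiquitin ligases of the NEDD4 family, and these ligases help to sort them from the Golgi to the lysosome. LAPTM4B is amplified or raised in several cancers, acts on the sorting of the EGF receptor, and brings a leucine transporter to the lysosome. LAPTM4A is its closest relative, is made in most tissues, and takes part in the synthesis of the glycolipid globotriaosylceramide. LAPTM5 is best known from leukocytes, where it directs antigen receptors to lysosomal breakdown. The questions here were whether either paralog changed when *LAPTM4B* fell, and how serum alone acted on each gene.

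All values here are RMA signals on the log2 scale, as deposited. RMA is a procedure that corrects background, equalizes the distribution of signals between arrays and summarizes the probes of a feature. Probes differ in brightness, so a value is compared between arrays for the same feature and never between genes. As a guide to brightness, *LAPTM4A* lay at percentile 98.7 to 98.9 of the features on each array. *LAPTM4B* lay at percentile 93.9 to 94.8 in siControl cells and *LAPTM5* at percentile 74.1 to 84.3 over all groups, so that all 3 were above the middle of the array. Array medians lay between 7.71 and 7.76, and the mean correlation of an array with its own group was 0.997 to 0.998.
Of the markers of the cell type, *KRT8* and *KRT18*, keratins of simple epithelia, were bright (at or above percentiles 97.6 and 95.5 in every array). *CDH1*, which encodes E-cadherin, stayed at or below percentile 27.2. The lung lineage factor *NKX2-1* stayed at or below percentile 40.4, the surfactant genes *SFTPB* and *SFTPC* at or below percentile 45.0 and *SCGB1A1*, a club cell gene, at or below percentile 43.5. The keratin genes *KRT7* and *KRT19* lay at percentiles 67.5 to 90.1 and 52.2 to 57.0, and *EPCAM*, an adhesion molecule of epithelia, at 56.2 to 76.8. The keratins and *EPCAM* were thus above the middle of the array, *KRT19* only just, and E-cadherin and the lung-specific genes were below it. Of 10 epithelial and lung markers, limma called only *KRT7* after knockdown without serum and only *EPCAM* with 10% FBS, beside 2.33% and 4.08% of all features. *KRT7* fell by 0.37 on the log2 scale, and *EPCAM* rose by 0.51. On serum withdrawal *KRT7* fell by 1.63 in siControl cells and fell by 1.90 in siLAPTM4B cells, and *EPCAM* rose by 1.09 and 0.79. No other gene of the 10 was called there, beside 26.0% and 20.7% of all features.

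The regions in front of 2 members are shown because limma called *LAPTM5* in some comparisons and *LAPTM4A* in none. Both are the 250 bases before the annotated start, from RefSeq on GRCh38.p14, written 5′ to 3′ on the minus strand, which is the strand of both genes. They lie at chr2:20051629-20051878 for *LAPTM4A* and at chr1:30757775-30758024 for *LAPTM5*. Capitals mark the motifs that were found.
LAPTM4A: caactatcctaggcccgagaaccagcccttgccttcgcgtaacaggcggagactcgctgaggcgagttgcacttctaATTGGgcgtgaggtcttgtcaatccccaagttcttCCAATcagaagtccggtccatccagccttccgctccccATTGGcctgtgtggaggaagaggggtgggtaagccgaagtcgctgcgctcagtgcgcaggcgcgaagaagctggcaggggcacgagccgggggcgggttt
LAPTM5: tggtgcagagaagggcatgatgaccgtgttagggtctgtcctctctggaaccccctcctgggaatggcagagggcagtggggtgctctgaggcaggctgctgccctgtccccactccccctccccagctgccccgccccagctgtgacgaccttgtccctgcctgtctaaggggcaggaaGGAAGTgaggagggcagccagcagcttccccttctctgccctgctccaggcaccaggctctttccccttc
The share of G and C was 61.2% for *LAPTM4A*, above that of 57.9% of all regions of this length, and 64.8% for *LAPTM5*, above that of 67.3% of them. They differ in CpG dinucleotides, of which *LAPTM4A* has 18, more than 63.5% of the 27303 regions of this length, and *LAPTM5* has 3, more than 23.6% of them. The motifs were searched on both strands and were chosen with the sequences in view, so no test was made. *LAPTM4A* holds 3 CCAAT boxes (CCAAT, or ATTGG on the other strand), a motif found in 33.0% of all regions. *LAPTM5* holds 1 ETS site (GGAAGT), a motif found in 19.9% of all regions, 70 to 65 bases before the start. No match was found in either region to the E-box of lysosomal genes (CACGTG, in 6.5% of all regions), the AP-1 site (TGANTCA, 6.6%), the core of the antioxidant response element (TGACNNNGC, 11.0%) or the TATA box (TATAAA, 11.1%). The motifs found share no base with one another. A match describes these letters only. *LAPTM4B* is not in the table of regions used.

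*LAPTM4B*, the target of the siRNA, was lowered in every siLAPTM4B array, and its remaining signal was higher without serum than with it. In serum-starved cells the siControl arrays had 11.94, 11.87 and 11.93 and the siLAPTM4B arrays 10.45, 10.50 and 10.54. With 10% FBS the siControl arrays had 11.76, 11.75 and 11.80 and the siLAPTM4B arrays 10.01, 10.04 and 9.99. The lowest siControl array lay above the highest siLAPTM4B array by 1.34 on the log2 scale without serum and by 1.71 with serum.
The log2 fold change (siLAPTM4B minus siControl) was -1.42 without serum (standard error 0.05, adjusted p = 8.6e-06 from limma) and -1.75 with 10% FBS (standard error 0.04, adjusted p = 6.4e-07 from limma). These correspond to 37.3% of the siControl signal (95% interval of the ratio 0.347 to 0.401) and 29.7% (0.277 to 0.318). *LAPTM4B* ranked 1 of 19460 features by the size of its change in both media. In these comparisons, 2.33% of the features were called at an adjusted p under 0.05 without serum and 4.08% with 10% FBS, of which 1.74% and 2.09% were lower. Groups did not overlap for 21.3% of features without serum and for 24.5% with 10% FBS.

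**Figure D1:**
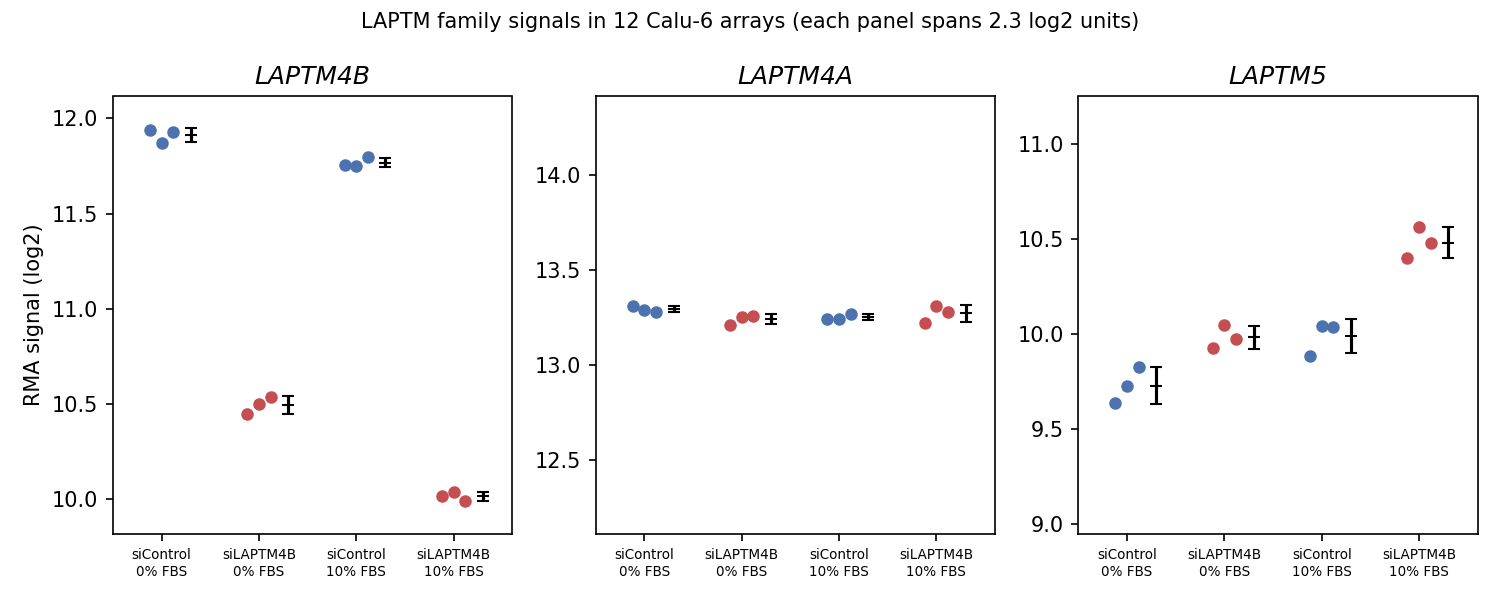
RMA signal (log2, y axis) of each LAPTM gene in the 12 arrays, by siRNA and serum (x axis). Each point is 1 array (3 per group), with the group mean ± SD drawn at its right. The panels span the same number of log2 units. *LAPTM4B* drops in both siLAPTM4B groups, *LAPTM4A* stays between 13.21 and 13.31, and *LAPTM5* is highest in siLAPTM4B cells with 10% FBS (10.40 to 10.56).

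*LAPTM5* rose after *LAPTM4B* knockdown in cells with serum, by 1.41-fold (95% interval 1.27 to 1.55). The siControl arrays with 10% FBS had 9.89, 10.04 and 10.04, and the siLAPTM4B arrays 10.40, 10.56 and 10.48. All siLAPTM4B arrays were thus higher than all siControl arrays, with a gap of 0.36 between the groups on the log2 scale. The log2 fold change was 0.49 (standard error 0.06, adjusted p = 0.0053 from limma), higher than that of 99.8% of features. The exact permutation test over arrays gave a two-sided p of 0.1, the smallest that 3 arrays against 3 allow. With 10% FBS, 1.99% of features were called higher, and 12.9% had all siLAPTM4B arrays above all siControl arrays. The call held without any 1 array and was lost with the methods' t-test, which the study names for its in vitro experiments and not for the arrays (adjusted p = 0.082, range 3.2e-05 to 0.082 over the alternatives).
In serum-starved cells the estimate for *LAPTM5* was positive and did not pass the threshold. The siControl arrays had 9.64, 9.73 and 9.83 and the siLAPTM4B arrays 9.93, 10.05 and 9.98, so that the groups did not overlap and lay 0.10 apart. The log2 fold change was 0.25 (standard error 0.06, adjusted p = 0.074 from limma, unadjusted p = 0.0023), a ratio of 1.19 with a 95% interval of 1.09 to 1.31. The unadjusted p lies under the threshold of 0.01 that the study's methods name. The study itself lists this feature as higher after knockdown in serum-starved cells at that threshold. The gene was also called when dim features were left out (adjusted p = 0.030), with a prior variance that was robust and followed intensity (0.0049), in a fit of all 12 arrays (0.046) and with a replicate block (0.042), and over the alternatives its adjusted p ranged from 0.0049 to 0.25. Without serum 0.591% of features were called higher, and 9.72% had all siLAPTM4B arrays above all siControl arrays. The change of *LAPTM5* without serum minus that with serum was -0.24 (95% interval -0.43 to -0.04, unadjusted p = 0.020, adjusted p = 0.35 from limma's interaction test), so a difference between the media was not called.

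*LAPTM4A*, the closest relative of the target, was not called in either medium. Without serum the siControl arrays had 13.31, 13.29 and 13.28 and the siLAPTM4B arrays 13.21, 13.25 and 13.26. With 10% FBS they had 13.24, 13.24 and 13.27 against 13.22, 13.31 and 13.28. The siLAPTM4B arrays lay just below the siControl arrays without serum, by 0.02, and the groups overlapped with serum. The exact permutation test gave a two-sided p of 0.1 without serum, the lowest attainable, and of 0.6 with 10% FBS. Without serum the groups did not overlap for 21.3% of all features.
The log2 fold change of *LAPTM4A* was -0.05 without serum (95% interval -0.15 to 0.04, adjusted p = 0.63 from limma) and 0.02 with 10% FBS (95% interval -0.08 to 0.12, adjusted p = 0.87). In linear terms the intervals run from 0.904 to 1.03 and from 0.944 to 1.09 of the siControl signal. A rise of the *LAPTM4A* signal above 1.09-fold, in either medium, is therefore outside these intervals. The feature is among the brightest of the array, and how closely its signal follows the amount of transcript was not tested.
The difference of target and paralog was also taken within each array. The difference *LAPTM4B* minus *LAPTM4A* changed by -1.37 without serum and by -1.78 with 10% FBS, and *LAPTM4B* minus *LAPTM5* by -1.68 and -2.25. In each of these 4 comparisons the siRNA groups did not overlap (two-sided p = 0.1 by exact permutation, again the lowest value attainable). The fall of *LAPTM4B* alone gives this outcome for any gene that is steady or higher, so the test does not bear on the paralogs. The larger figures for *LAPTM5* include its own higher signal in siLAPTM4B cells.

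**Figure D2:**
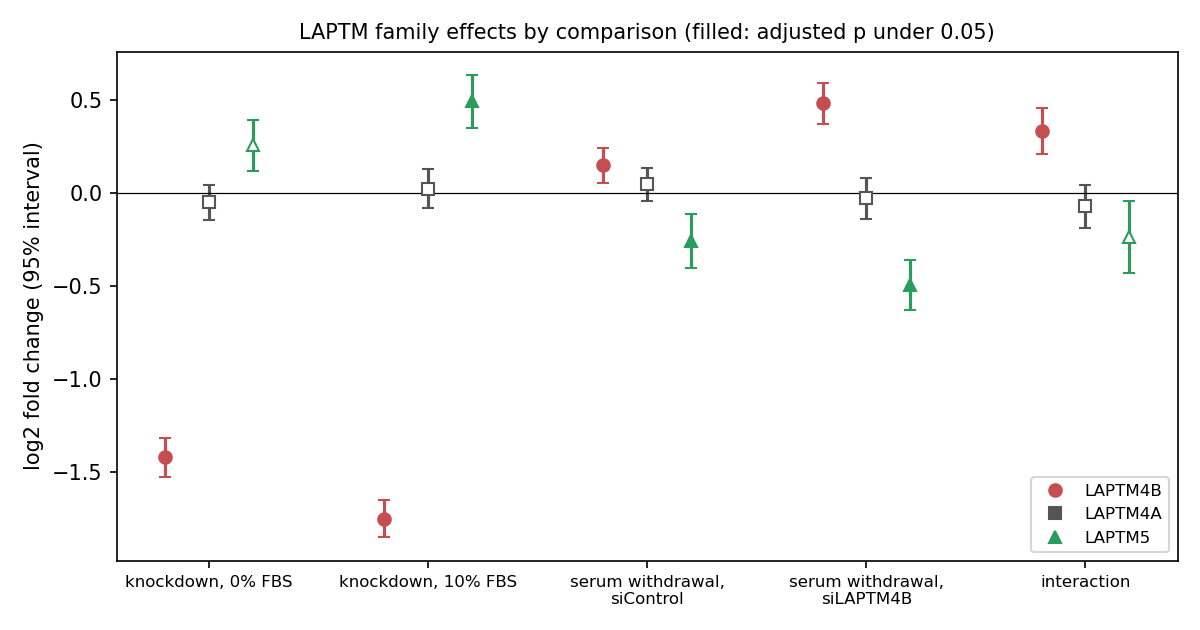
Log2 fold change (y axis) with its 95% interval for the 3 genes in 4 comparisons and the interaction (x axis). Serum withdrawal is 0% minus 10% FBS, and the interaction is the knockdown effect without serum minus that with serum; filled symbols passed an adjusted p under 0.05. The interval of *LAPTM4A* includes 0 in each, while *LAPTM4B* and *LAPTM5* take opposite signs in every comparison.

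Serum withdrawal moved *LAPTM4B* and *LAPTM5* in opposite directions. In siControl cells, *LAPTM4B* rose by 0.15 on the log2 scale (0% minus 10% FBS, standard error 0.04, adjusted p = 0.030 from limma), or 1.11-fold, and *LAPTM5* fell by 0.26 (standard error 0.06, adjusted p = 0.019), to 83.5% of its signal with serum. Here 26.0% of all features were called, 13.2% higher and 12.9% lower, so a call was common in this comparison. Neither gene's groups overlapped (exact permutation test, two-sided p = 0.1 each), as for 41.1% of features, 19.5% higher and 21.6% lower without serum. *LAPTM4A* had a log2 fold change of 0.04 (95% interval -0.04 to 0.13, adjusted p = 0.46 from limma). Its arrays without serum lay above those with serum by 0.012 (exact permutation test, two-sided p = 0.1).
The unpaired calls depended on single arrays. That of *LAPTM4B* was lost without each siControl array except 0% FBS replicate 2 (adjusted p 0.0502 to 0.11 from limma, with values of 0.13 to 0.16 for the log2 change). That of *LAPTM5* was lost without 0% FBS replicates 1 and 2 and without 10% FBS replicates 2 and 3 (adjusted p 0.056 to 0.072 from limma, with values of -0.26 to -0.21). The labels number the replicates and name no pairs. The reported fit did not pair arrays, and the replicate block takes same-numbered arrays as pairs. For the siControl media that reading rests on correlations in these same data, so the pairing is an inference. If that pairing is right, both calls stood with the replicate block, with an adjusted p of 0.0040 for *LAPTM5* and 0.034 for *LAPTM4B* from limma. The differences of *LAPTM5* within the 3 same-numbered pairs were -0.25, -0.32 and -0.21.

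In siLAPTM4B cells the same directions were seen with larger estimates. *LAPTM4B* rose by 0.48 (standard error 0.05, adjusted p = 0.00011 from limma), a 1.39-fold higher remaining signal without serum. *LAPTM5* fell by 0.50 (standard error 0.06, adjusted p = 0.00029), to 70.8%. *LAPTM4A* had -0.03 (95% interval -0.14 to 0.08, adjusted p = 0.76). In this comparison 20.7% of features were called, 9.74% higher and 11.0% lower, and 36.0% did not overlap between the groups, 16.4% higher and 19.7% lower without serum. Calls of *LAPTM4B* and *LAPTM5* held without any 1 array.
The effect of knockdown on *LAPTM4B* itself was weaker without serum, by 0.33 on the log2 scale (95% interval 0.21 to 0.45, adjusted p = 0.035 from limma's interaction test). The interaction called 0.262% of features. The call was lost when each of the 12 arrays in turn was left out (adjusted p 0.052 to 0.10 from limma), while the difference itself stayed between 0.31 and 0.36.

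The order of the groups follows from these values. For *LAPTM4B* it ran from siControl 0% FBS (11.91 ± 0.04, SD, n = 3) over siControl 10% FBS (11.77 ± 0.02) and siLAPTM4B 0% FBS (10.49 ± 0.05) to siLAPTM4B 10% FBS (10.01 ± 0.02), with no overlap between neighbours. For *LAPTM5* it ran from siLAPTM4B 10% FBS (10.48 ± 0.08, SD, n = 3) over siControl 10% FBS (9.99 ± 0.09) and siLAPTM4B 0% FBS (9.98 ± 0.06) to siControl 0% FBS (9.73 ± 0.10). The middle groups of *LAPTM5* overlapped, so the signal of serum-starved knockdown cells was not separated from that of control cells with serum. The means of *LAPTM4A* lay between 13.24 and 13.29, and its siLAPTM4B arrays with 10% FBS overlapped with each of the other groups.

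Since *LAPTM5* is a gene of leukocytes, 12 other leukocyte genes were read on the same arrays. The pan-leukocyte gene *PTPRC*, which encodes CD45, stayed between percentiles 9.94 and 11.5 of the array, and *CD53* between 21.1 and 26.1. *SPI1*, which encodes a factor of myeloid and B cells, stayed between 57.5 and 60.1. The brightest of the 12 were *PTPN6*, at 64.7 to 72.4, and *CORO1A*, at 63.9 to 68.5. With 10% FBS, where *LAPTM5* rose, 0 of the 12 were called by limma, beside 4.08% of all features, so that 0 of 12 does not set these genes apart. Of the 12, 0 had an unadjusted p under 0.05, a threshold at which the share of all features was not counted. Their log2 fold changes ran from -0.07 to 0.13 with a median of 0.01. Without serum 1 was called, beside 2.33% of all features. This was the phosphatase gene *PTPN6*, which fell by 0.27. The mean signal over the 12 genes was 6.96 to 7.09 in siControl and 7.00 to 7.06 in siLAPTM4B arrays with 10% FBS, and 6.98 to 7.00 and 6.94 to 7.05 without serum. The ranges of the siRNA groups thus overlapped in both media. On serum withdrawal, where *LAPTM5* fell, *PTPN6* fell by 0.30 in siControl and by 0.52 in siLAPTM4B cells, and *CORO1A*, an actin-binding protein of leukocytes, rose by 0.30 and 0.26. No other gene of the 12 was called there, beside 26.0% of all features in siControl and 20.7% in siLAPTM4B cells.

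In the RefSeq gene order each LAPTM gene lies between a matrilin gene, which encodes a protein of the extracellular matrix, and a syndecan gene, which encodes a cell surface proteoglycan. On chromosome 2, *LAPTM4A* has *MATN3* and *SDC1* as its nearest measured genes, on opposite sides. On chromosome 1, *LAPTM5* has *SDC3* on one side and, as the second measured gene on the other, *MATN1*. On chromosome 8, *LAPTM4B* has *MATN2* as its nearest measured gene on one side, and *SDC2* is the fourth on the other.
Of the 12 nearest measured genes, 2 on each side of each member, limma called 0 after knockdown without serum (lowest adjusted p 0.068, for *MATN3*) and 0 with 10% FBS (lowest 0.11, for *SDC1*), where 2.33% and 4.08% of all features were called, so that 0 of 12 does not set these genes apart. At an unadjusted p under 0.05 these counts were 3 and 1, with no share of all features at that threshold to set beside them. Over the 12 genes the log2 fold changes ran from -0.36 to 0.12 without serum and from -0.17 to 0.05 with 10% FBS. The 3 without serum all lie beside *LAPTM4A*, namely *MATN3* (-0.36), *WDR35* (-0.17) and *SDC1* (-0.15), and the 1 with 10% FBS was *SDC1* (-0.17). Without serum the unadjusted p from limma was 0.0020 for *MATN3* and 0.0069 for *WDR35*, under the study's threshold of 0.01. The study lists *MATN3* as lower after knockdown in serum-starved cells at that threshold. Beside *LAPTM4B*, *MATN2* had log2 fold changes of -0.11 and -0.05. Beside *LAPTM5*, *SDC3* had -0.01 and -0.11, and *MATN1* had -0.02 and 0.04.
Serum withdrawal called 3 of the 12 in siControl cells, *SDC1* higher (0.22) and *WDR35* (-0.19) and *MTDH* (-0.16) lower. In siLAPTM4B cells it also called 3, *NKAIN1* (0.33) and *SDC1* (0.23) higher and *WDR35* (-0.32) lower. These counts are near the background of 26.0% and 20.7% of all features. *SDC1* encodes the main syndecan of epithelia and *WDR35* a part of the transport machinery of cilia. In siControl cells *LAPTM4B* and *MTDH*, the nearest measured gene on one side of it, were called in opposite directions on serum withdrawal.

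**Figure D3:**
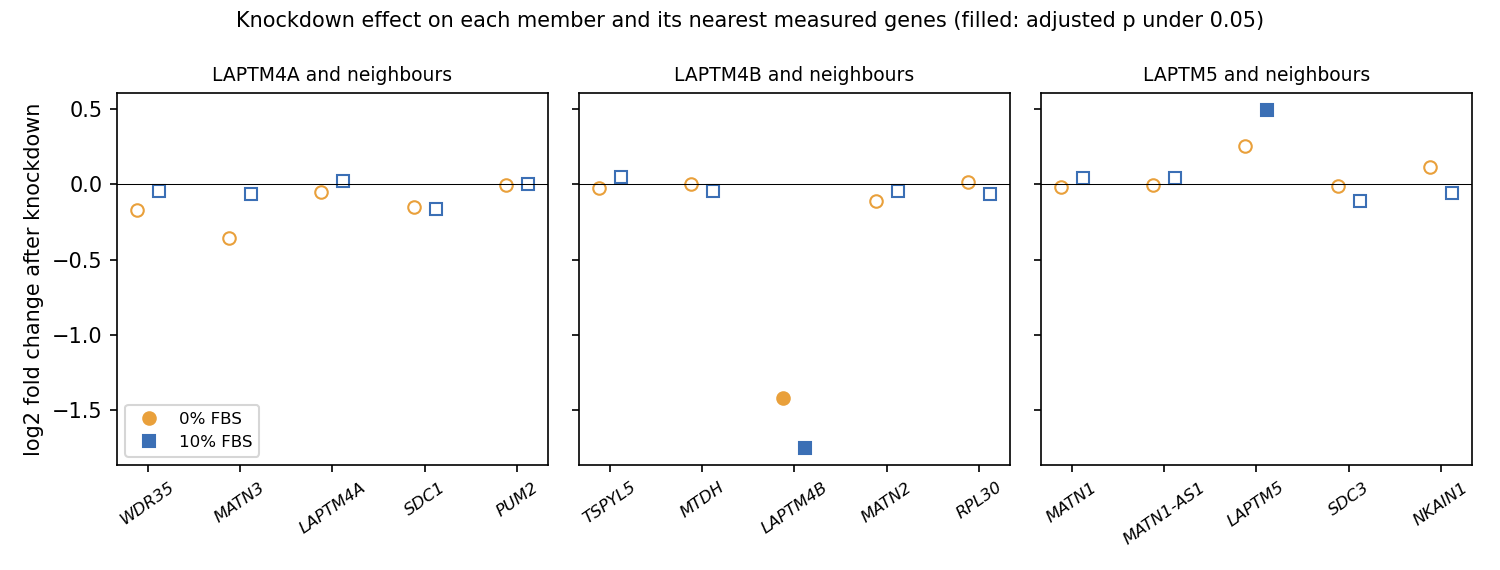
Log2 fold change after *LAPTM4B* knockdown (y axis) of each LAPTM gene and of the nearest 2 measured genes on each side, in chromosomal order (x axis), without serum (circles) and with 10% FBS (squares). Filled symbols passed an adjusted p under 0.05; of the genes drawn, these are *LAPTM4B* in both media and *LAPTM5* with 10% FBS.

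Among genes whose proteins bind, sort or work with LAPTM proteins, knockdown called 2, both with 10% FBS, where 4.08% of all features were called. The alternatives were not run for single genes of the lists. Of the 16 listed and measured, *SLC7A5*, the light chain of the leucine transporter that LAPTM4B brings to the lysosome, fell by 0.25 (standard error 0.04, adjusted p = 0.019 from limma). *RUBCN*, which encodes Rubicon, a brake on the maturation of autophagosomes, rose by 0.23 (standard error 0.05, adjusted p = 0.034). The median over the list was 0.015, as against 0.0043 over all features. Without serum 0 of the 16 were called by limma, beside 2.33% of all features, and *SLC7A5* had -0.08 and *RUBCN* 0.12. The log2 fold changes of the 16 without serum lay between -0.11 and 0.16. At an unadjusted p under 0.05 there were 5 of the 16 in each medium, and the share of all features at that threshold was not counted.
On serum withdrawal in siControl cells 5 of the 16 were lower and 1 was higher, where 12.9% and 13.2% of all features were. In siLAPTM4B cells 4 were lower and 1 was higher, where 11.0% and 9.74% of all features were. *SLC7A5* fell by 0.65 in siControl and by 0.49 in siLAPTM4B cells. *NEDD4*, the ubiquitin ligase that binds LAPTM tails, fell by 0.32 and 0.34, and the clathrin adaptor gene *GGA3* fell by 0.32 and 0.31. *TNFAIP3*, an inhibitor of NF-kappaB signaling, fell by 0.33 and 0.60. *PIP5K1C*, a lipid kinase gene, rose by 0.18 and 0.19.

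The ubiquitin ligases of the NEDD4 family and their adaptors were 11 genes, all measured. With 10% FBS 1 was called after knockdown, *WWP1*, which rose by 0.25 (standard error 0.05, adjusted p = 0.037 from limma). Without serum 0 were called. The shares of all features called were 4.08% with 10% FBS and 2.33% without serum. At an unadjusted p under 0.05, where the share of all features was not counted, there were 3 with 10% FBS and 1 without serum. On serum withdrawal in siControl cells 3 of the 11 rose and 3 fell, beside 13.2% and 12.9% of all features. *NEDD4L* rose by 0.50, *WWP1* by 0.28 and *SMURF1* by 0.22, while *SMURF2* fell by 0.38, *NEDD4* by 0.32 and *HECW1* by 0.30. In siLAPTM4B cells, where 20.7% of all features were called, *NEDD4L* rose by 0.35, and *SMURF2* (-0.44), *NEDD4* (-0.34) and *HECW1* (-0.19) fell. *NEDD4* and its relative *NEDD4L* thus changed in opposite directions in both siRNA groups.
The MiT factors switch on lysosomal genes. Of *TFEB*, *TFE3*, *MITF* and *TFEC*, 0 were called after knockdown by limma in either medium, beside 2.33% of all features without serum and 4.08% with 10% FBS. At an unadjusted p under 0.05 there were 2 without serum and 1 with 10% FBS, and the share of all features at that threshold was not counted. On serum withdrawal *MITF* fell by 0.57 in siControl and by 0.60 in siLAPTM4B cells, and *TFEB* rose by 0.19 in siLAPTM4B cells. Over all features 26.0% and 20.7% were called there.

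Among 47 other genes of the lysosomal membrane, knockdown called 1 in each medium, a share no higher than the 2.33% of all features called without serum and the 4.08% with 10% FBS. Without serum the calcium channel gene *MCOLN3* fell by 0.24 (standard error 0.05, adjusted p = 0.045 from limma). With 10% FBS *MFSD1*, which encodes a lysosomal transporter, rose by 0.33 (standard error 0.06, adjusted p = 0.017). The medians of the list were -0.0022 and 0.034, as against 0.0068 and 0.0043 over all features. The log2 fold change of *LAPTM5* with 10% FBS (0.49) lay above that of each of the 47, which ran from -0.16 to 0.33.
Serum withdrawal called 22 of the 47 in siControl cells, 12 higher and 10 lower, and 16 in siLAPTM4B cells, 8 in each direction. Over all features 26.0% (13.2% higher, 12.9% lower) and 20.7% (9.74% higher, 11.0% lower) were called. *NPC1*, which exports cholesterol from lysosomes, rose the most in siControl cells, by 0.68, and by 0.73 in siLAPTM4B cells. The tetraspanin gene *CD63* rose by 0.43 and 0.39, and *HGSNAT*, an enzyme of heparan sulfate breakdown, by 0.43 and 0.32. *SLC29A3*, a lysosomal nucleoside transporter, fell by 0.83 and 0.94. *CD68*, a macrophage marker, fell by 0.52 and 0.62, *SIDT2* by 0.57 and 0.48, and the potassium channel gene *TMEM175* by 0.41 in both. The list was divided in direction, as all features were. In the interaction limma called 0 genes of these 4 lists, beside 0.262% of all features, so that 0 does not set the lists apart. At an unadjusted p under 0.05 there were 3 partners, 2 NEDD4 family genes, 6 lysosomal membrane genes and 0 MiT factors. The share of all features at that unadjusted threshold was not counted, so these numbers have no background beside them.

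**Figure D4:**
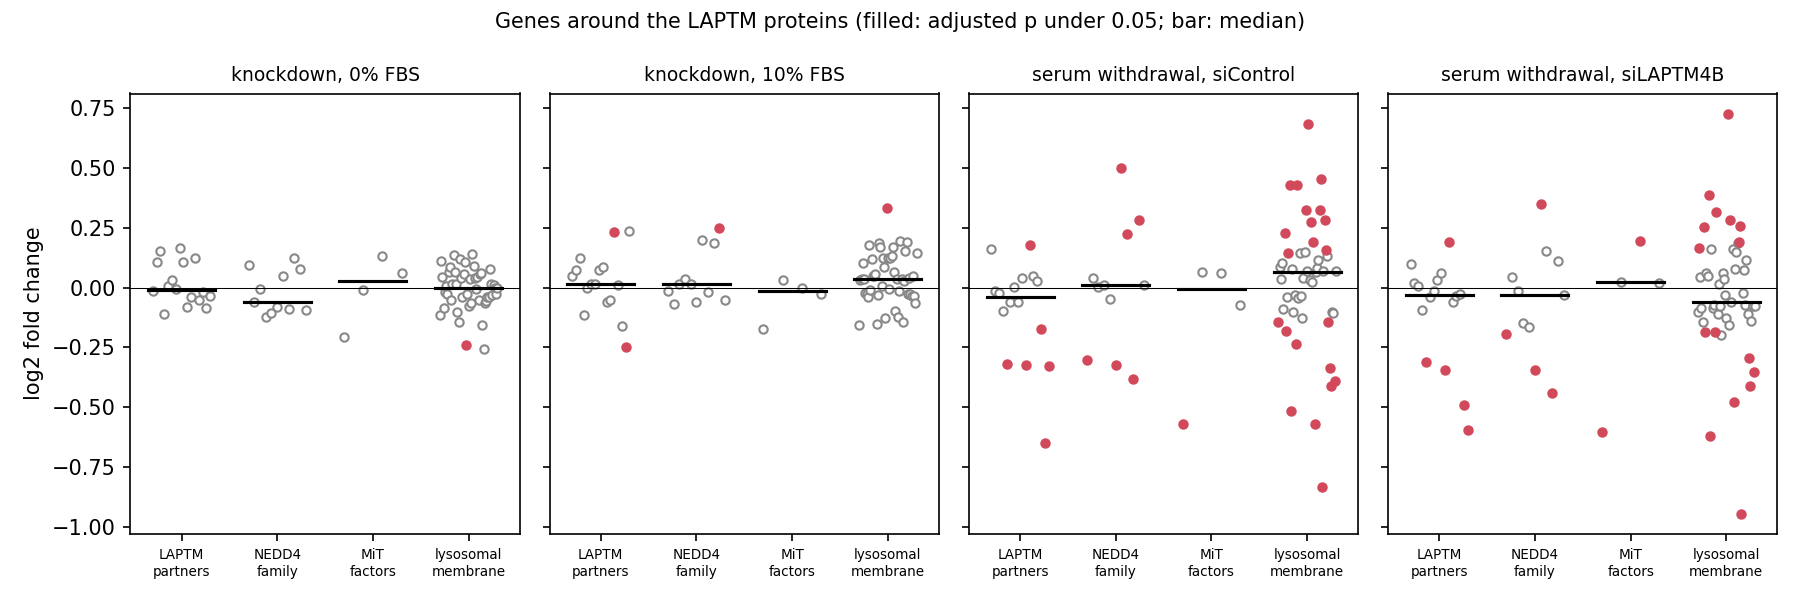
Log2 fold changes (y axis) of genes around the LAPTM proteins, in 4 lists (x axis), for knockdown without and with serum and for serum withdrawal in siControl and siLAPTM4B cells. Each point is a gene, filled where its adjusted p was under 0.05, and the bar is the median of the list. Of the 47 lysosomal membrane genes 1 is filled in each knockdown panel, against 22 and 16 in the panels of serum withdrawal.

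The genes whose signals followed each member most closely were sought over the 12 arrays, among 11378 genes with a signal at or above the median. The Pearson correlations that follow are descriptions. The 12 points fall into the 4 siRNA and serum groups and so are not independent. *LAPTM4B* was followed most closely by *SLC7A8*, which encodes an amino acid transporter light chain (r = 0.990), then by *CKAP4* (0.979), *DUSP16*, a phosphatase of MAP kinases (0.978), *SEPTIN8* (0.975) and *SLC7A11*, the cystine transporter gene (0.975). *SLC7A8* had a log2 fold change of -0.52 after knockdown without serum and -0.60 with 10% FBS, and *SLC7A11* of -0.62 and -0.86.
*LAPTM5* was followed by *LINC00467* (r = 0.977), *SKAP2* (0.977), *AAAS* (0.968), *ITPR2*, a calcium channel of the endoplasmic reticulum (0.967), and *KIAA0586* (0.966). *LINC00467*, a long noncoding RNA, had log2 fold changes of 0.42 without serum and 0.61 with 10% FBS after knockdown, and of -0.45 and -0.63 on serum withdrawal in siControl and siLAPTM4B cells. The genes most like *LAPTM4A* were *MELK* (0.944), the replicative helicase gene *MCM6* (0.941), *HADH* (0.932), *ARIH1* (0.917) and *SEPTIN2* (0.916). Their log2 fold changes lay between -0.10 and 0.13 in the 4 comparisons of groups, and those of *LAPTM4A* between -0.05 and 0.04. The signal of *LAPTM4A* ran only from 13.21 to 13.31 over the 12 arrays. Its correlations are thus the highest among 11378 genes with a signal that barely moved, and whether these genes are related to it was not tested.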

How the data were processed

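Total RNA of 12 samples was measured on Affymetrix Human Gene 1.0 ST arrays. The authors summarized them by RMA, and the deposited log2 signals run from 3.37 to 14.8. The library file is not given in the sources used here. Genes were named from the platform annotation in GEO: of 33252 features, 19460 had 1 symbol, 1754 had several and 12038 had none. Groups came from the labels and 0 columns were unmapped. No pair of arrays held identical values.

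From the log2 values as deposited, each comparison was fitted on its own 6 arrays (the interaction on 12) with lmFit and eBayes of limma 3.58.1 in R 4.3.3. Benjamini-Hochberg adjustment ran over the 19460 features, with a call made below an adjusted p of 0.05. For single genes the exact two-sided permutation test over arrays was added, whose smallest p is 0.1. P-values measure the spread between these replicate arrays, and the number of arrays limits the precision. Whether the *LAPTM4B* probes match related sequences was not examined.

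The text names the 3 LAPTM genes, at most 4 called genes per list, comparison and direction by size of change, the nearest 2 measured genes on each side in RefSeq order, and the 5 genes of highest Pearson r to each member among genes at or above the median signal. The lists were LAPTM partners, NEDD4 family, lysosomal membrane, MiT factors, leukocyte markers, and epithelial and lung markers. *NEDD4*, *ITCH* and *MCOLN1* each stand in 2 lists. The marker genes and the promoter motifs were named as needed. Members and lists were chosen with earlier results of these data known. The alternatives were the limma fit and adjustment over all features (so that the prior variance changed too), a replicate block, dim features left out, and trend and robust variance. Further ones were the methods' t-test with Benjamini-Hochberg adjustment, a fit of all 12 arrays, median centring, an unadjusted p under 0.01, and leaving out each array. The study names that t-test for in vitro experiments, and the test used for the arrays is not given in the sources used here. Same-numbered replicates correlated in their deviations from the group means at 0.37, 0.13 and 0.20 between the siControl media, and were read as possible pairs there. The reported fits used no pairs, and the replicate block was run for every comparison. The labels name no pairs.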

Additional observations from a re-analysis of the deposited data

Results flagged for a closer look

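The knockdown effect on *LAPTM4B* differed between the media by 0.33 on the log2 scale (0% minus 10% FBS, limma interaction term, SE 0.06, adjusted p = 0.035). The call was lost when each of the 12 arrays in turn was left out (adjusted p 0.052 to 0.10 from limma). It was also lost with the limma fit and adjustment over all features (adjusted p = 0.095). The remaining signal was 37.3% of siControl without serum and 29.7% with 10% FBS, and all 3 siLAPTM4B arrays without serum lay above the 3 with serum. Groups of 3 arrays are too small for a test of single outlying arrays.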

How the results depend on the processing

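No result for the LAPTM genes changed direction under the alternatives run. *LAPTM5* after knockdown without serum (0.25, not called as reported) was called with the replicate block, with dim features left out, with trend and robust variance, in the fit of all 12 arrays and at an unadjusted p under 0.01. With the methods' t-test *LAPTM5* lost its call after knockdown with 10% FBS (0.49) and on serum withdrawal in siControl cells (-0.26, adjusted p = 0.094). With the fit and adjustment over all features, limma's calls on serum withdrawal in siControl cells were lost for *LAPTM5* (-0.26, adjusted p = 0.053) and *LAPTM4B* (0.15, adjusted p = 0.064). The call of the *LAPTM4B* interaction was lost there as well (0.33, adjusted p = 0.095). The cause was not tested. The replicate block changed no other call of a LAPTM gene, and under it the interaction called 84 features in place of 51. Same-numbered arrays correlated at 0.39, 0.069 and 0.18 for knockdown without serum, 0.37, 0.15 and -0.079 with 10% FBS, and 0.32, 0.13 and -0.17 for serum in siLAPTM4B cells. The block was run in these comparisons too, but the numbers were not read as pairs there. The values for knockdown without serum lie near those between the siControl media, so this choice is open to doubt.

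Leaving out each array in turn, *LAPTM4B* ranged from -1.44 to -1.40 after knockdown without serum, from -1.77 to -1.74 with 10% FBS, from 0.13 to 0.17 and from 0.46 to 0.50 on serum withdrawal in siControl and siLAPTM4B cells, and from 0.31 to 0.36 for the interaction. *LAPTM5* ranged from 0.21 to 0.30, 0.44 to 0.53, -0.31 to -0.21, -0.54 to -0.46 and -0.28 to -0.19 in the same order. The features called after knockdown numbered 454 without serum and 793 with 10% FBS. Fit and adjustment over all features gave 134 and 279 (interaction 17), dim features left out 808 and 1207 (111), and trend and robust variance 1126 and 1686 (163). The methods' t-test gave 27 and 177, and 12 arrays 687 and 1370. An unadjusted p under 0.01 gave 1291 and 1574 (682), and leaving out 1 array 118 to 290 and 228 to 482 (19 to 51). With 3 arrays a group, small changes of *LAPTM4A* inside the intervals given are not resolved.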
